A study of Homo sapiens with 2 samples.

Results

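Keratin genes were described in RNA-Seq counts from A1847 cells, a human epithelial ovarian cancer cell line with high CARM1. They were taken by name and not by their values, as protein-coding genes whose symbol is KRT followed by a number, and 55 of the 57736 genes in the deposited table met this rule, 29 of type I and 26 of type II. The groups were parental A1847 cells with wild-type CARM1 and CARM1 KO cells, which are 1 clone of the same line made by CRISPR with 1 guide RNA against CARM1, and each group had 1 library. No value below therefore has a replicate check, and differences are between these libraries and not between conditions. The study compared the cells to find genes that depend on CARM1, an arginine methyltransferase. The libraries held 30741953 reads in parental cells against 32300391 in CARM1 KO cells, and CARM1 itself had 975 reads in parental cells against 380 in CARM1 KO cells, which was 2.63-fold lower (95% interval 2.33 to 2.97) and under the fold threshold of 3 used below. These reads do not measure protein, and the paper, which examined CARM1 protein by immunoblot, reports the clone as a knockout.

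Keratins are the intermediate filament proteins of epithelial cells. A filament is built from pairs of an acidic type I chain with a basic type II chain, and a chain without a partner is degraded. Simple epithelia, among them those of the ovarian surface and the fallopian tube, build filaments mainly from KRT8 with KRT18, often with KRT7, KRT19 or KRT20. Stratified epithelia such as skin use KRT5 with KRT14 in the basal layer and KRT1 with KRT10 above it, while KRT6A, KRT16 and KRT17 appear in injured or rapidly dividing layers, and the hair and root sheath keratins form hair. Pathologists use these patterns to trace the origin of a carcinoma, and ovarian carcinomas are typically positive for KRT7 and negative for KRT20.

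Keratins of simple epithelia made up nearly all keratin transcript in both libraries, and the abundant ones were higher in CARM1 KO cells. KRT7 and KRT8 were higher past 3-fold and their type I partner KRT18 was 2.37-fold higher, while KRT19 was lower, with 0 reads in CARM1 KO cells, and KRT20 had 0 reads in both libraries. Of the remaining keratins, KRT17, KRT80 and KRT34 were higher and KRT222 was lower past 3-fold. Fold changes are ratios of reads after TMM scaling, with exact 95% binomial intervals for counting error, and a gene was called when its fold change was above 3 and its interval did not include 1. Because RNA was taken from bulk cultures, more cells with a transcript and more transcript per cell cannot be told apart.

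Of the 55 keratins, 30 had 0 reads in both libraries, where a count of 0 allows up to 3 reads in a library, 13 had 1 to 9 reads in both together and 12 had at least 10 reads. Among these 12 keratins, 5 were called higher and 2 were called lower in CARM1 KO cells. Over all 18563 genes with at least 10 reads the share called higher was 12.4% and the share called lower was 11.2%. The 12 keratins are those that passed the minimum of reads and not all members, and KRT34, KRT222 and KRT19 passed it through the library in which they were high, so the counts are a description. The median log2 fold change of the 12 keratins was 0.98, beside -0.02 over all genes with at least 10 reads, and was 2.26 over the keratins with at least 50 reads. The calls spread over the family, with 2 of the 4 simple keratins with enough reads, 1 of 5 stratified, 1 of 1 hair and 1 of 2 other epithelial keratins called higher.

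**Figure D1:**
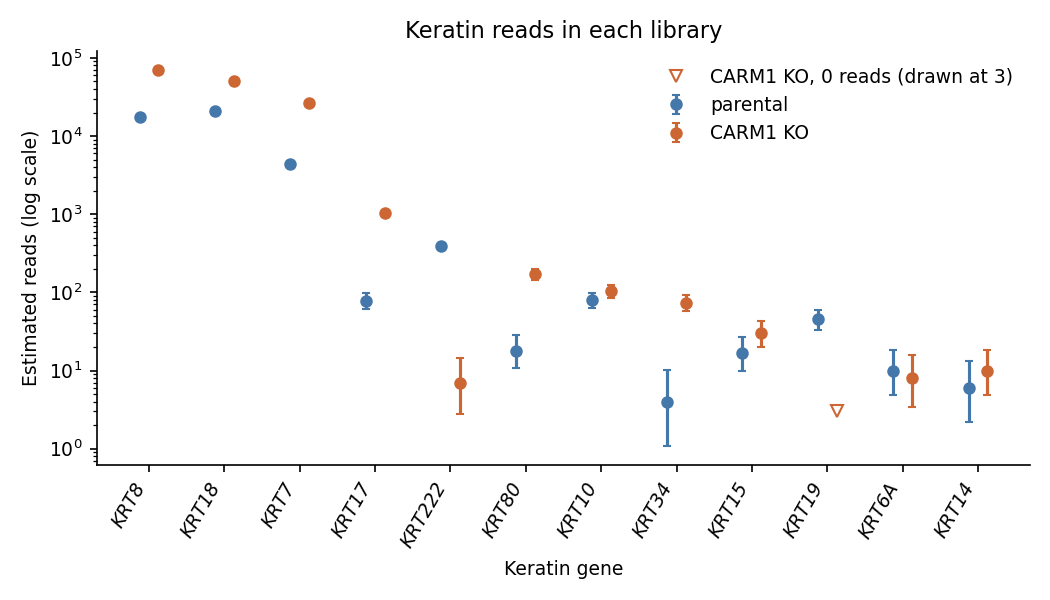
Estimated reads of the 12 keratins with 10 or more reads over both libraries, on a log scale, in parental (blue) and CARM1 KO (orange) cells, with exact 95% Poisson intervals that cover counting error only. KRT8, KRT18 and KRT7 are the 3 highest in each library, and KRT19 has 45 reads in parental cells against 0 in CARM1 KO cells, drawn at the 3 reads that a count of 0 allows.

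Of the simple keratins, KRT8, the type II chain that pairs with KRT18 and is among the first keratins of the embryo, had 17600 reads in parental cells against 70370 in CARM1 KO cells. It was 3.91-fold higher (95% interval 3.84 to 3.97). KRT18, its type I partner, had 21154 and 51223 reads. Its fold change of 2.37 (95% interval 2.33 to 2.40) was under the fold threshold, although the interval lay above 2. KRT7, the type II chain of glandular and ductal epithelia, had 4417 reads in parental cells against 26653 in CARM1 KO cells, which was 5.89-fold higher (95% interval 5.71 to 6.09). All 3 of the abundant simple keratins were thus higher in CARM1 KO cells, and they differed in how far. The fold change of KRT7 was 1.51 times that of KRT8, with a 95% counting interval of 1.46 to 1.57, and the fold change of KRT8 was 1.65 times that of KRT18, with an interval of 1.61 to 1.69. These ratios need no scaling between libraries.

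KRT19 and KRT20, the remaining simple keratins, did not follow them. KRT19 is the tailless type I chain found in ducts and in many carcinomas, and it had 45 reads in parental cells against 0 in CARM1 KO cells, so that it was at least 15.4-fold lower against the 3 reads that a count of 0 allows, and the exact interval for counting error in both libraries began at 11.98-fold. Even in parental cells its level per length was low, at an RPKM of 1.04, computed here from TMM-scaled reads and the length of the canonical transcript, where KRT18 reached 481. KRT20, a marker of intestinal and Merkel cells, had 0 reads in parental cells against 0 in CARM1 KO cells. At this depth its presence was not detectable in either library.

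**Figure D2:**
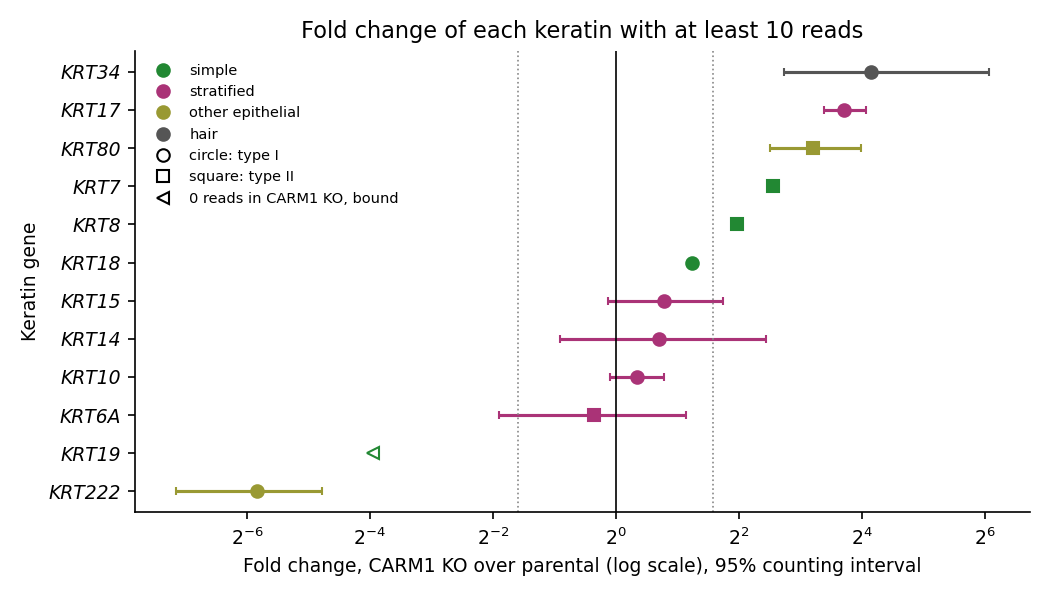
Fold change of CARM1 KO over parental cells for the 12 keratins with at least 10 reads, on a log scale, with 95% counting intervals, circles for type I and squares for type II keratins, colour for the kind of keratin and dotted lines at 3-fold. KRT7, KRT8, KRT17, KRT34 and KRT80 lie past 3-fold on the higher side, KRT222 on the lower side, and KRT19 is drawn as an open triangle at its bound.

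Per length, the balance between the chain types shifted. The RPKM of KRT18 was 481 in parental cells and 1137 in CARM1 KO cells. For KRT8 it was 317 in parental and 1237 in CARM1 KO cells, and for KRT7 it was 87.3 and 514. KRT18 thus stood above KRT8 in parental cells, with a KRT8 to KRT18 ratio of 0.66, and slightly below it in CARM1 KO cells, with a ratio of 1.09. Summed over all members, the type I level was 490 in parental and 1163 in CARM1 KO cells, while the type II level was 404 in parental and 1753 in CARM1 KO cells. The ratio of type II to type I went from 0.83 to 1.51. In summed reads, type I keratins were 2.36-fold higher (95% interval 2.32 to 2.39) and type II keratins were 4.31-fold higher (95% interval 4.24 to 4.37). Type I keratins held 49.7% of all keratin reads in parental (exact binomial 95% interval 49.2 to 50.2) and 35.1% in CARM1 KO cells (95% interval 34.8 to 35.3). Single genes carried these sums. KRT18 was 53.8% of the summed keratin level per length in parental and 39.0% in CARM1 KO cells, KRT8 was 35.4% and 42.4%, and KRT7 was 9.76% and 17.6%.

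**Figure D3:**
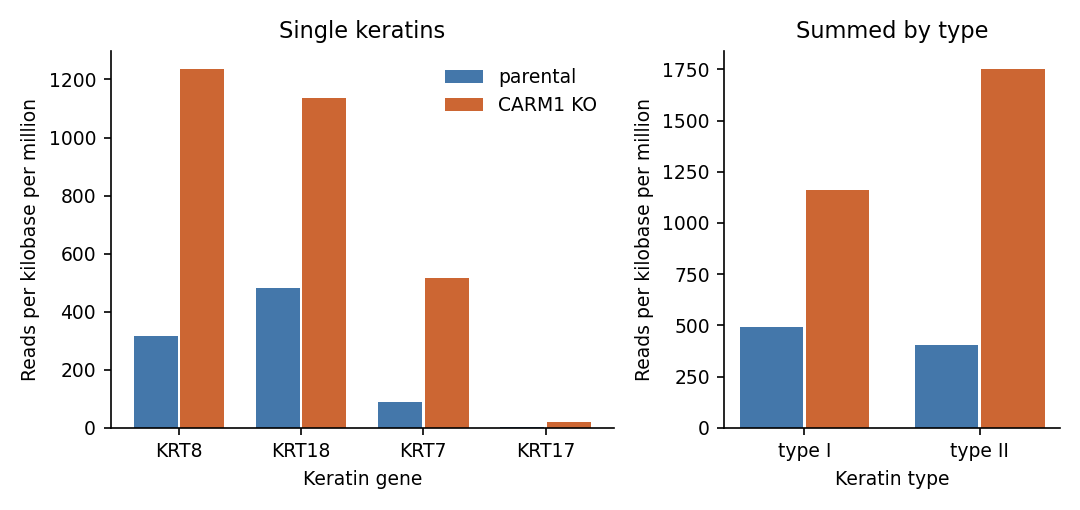
Level per length, in RPKM over the canonical transcript from TMM-scaled reads, for the 4 keratins that are highest in CARM1 KO cells (left) and summed over all type I and all type II keratins (right), in parental (blue) and CARM1 KO (orange) cells, with 1 library per bar. Type II keratins lie at 404 in parental and 1753 in CARM1 KO cells, and type I keratins at 490 and 1163.

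Stratified keratins were a small part of the total and KRT17 was most of their difference. The simple keratins held 99.1% of the summed level per length in each library, and the stratified keratins held 0.395% in parental and 0.837% in CARM1 KO cells. KRT17, a type I keratin of basal, hair follicle and wounded epithelium, had 78 reads in parental cells against 1051 in CARM1 KO cells. It was 13.2-fold higher (95% interval 10.4 to 16.8), and its level per length of 21.7 in CARM1 KO cells remained well under the 1237 of KRT8. Most of the class difference came from this gene. The summed reads of the 18 stratified keratins were 6.02-fold higher in CARM1 KO cells, but without KRT17 they went from 120 to 170 reads, a 1.38-fold difference (95% interval 1.09 to 1.76).

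The other stratified keratins with at least 10 reads were not called. KRT10, the type I chain of the layers above the basal layer, had 80 reads in parental cells against 104 in CARM1 KO cells, and its fold change of 1.27 had an interval from 0.94 to 1.72. KRT15, a basal and follicle stem cell keratin, had 17 and 30 reads, and KRT14, the basal partner of KRT5, had 6 and 10 reads. KRT6A, induced in wounds, had 10 reads in parental cells against 8 in CARM1 KO cells. The intervals of all 4 of these keratins include 1. Those of KRT14 (0.536 to 5.45) and KRT15 (0.921 to 3.33) also include 3-fold higher, and that of KRT6A (0.268 to 2.20) also includes 3-fold lower. KRT16, which often accompanies KRT6A and KRT17, had 1 read in parental cells against 8 in CARM1 KO cells and was under the minimum of reads. KRT5 had 2 reads in parental cells against 0 in CARM1 KO cells, and KRT1, KRT6B, KRT6C, KRT9, KRT12 and KRT13 were among the stratified keratins with 0 reads in both libraries.

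Outside these classes, KRT80, KRT34 and KRT222 differed. KRT80, a type II keratin found near desmosomes in several epithelia, had 18 reads in parental cells against 170 in CARM1 KO cells and was 9.22-fold higher (95% interval 5.66 to 15.9). KRT34, a type I hair keratin, had 4 reads in parental cells against 73 in CARM1 KO cells, and its 17.8-fold difference had a wide interval of 6.67 to 67.2. Of the other 16 hair keratins, 11 had 0 reads in both libraries and 5 had between 1 and 6 reads in all, and of the 9 root sheath keratins only KRT27 and KRT73 had a read, 1 each in CARM1 KO cells. KRT222, a short type I relative, had 388 reads in parental cells against 7 in CARM1 KO cells. It was 56.8-fold lower (95% interval 27.3 to 142), and in parental cells its level per length of 4.61 was above the 1.65 of KRT17.

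The shared sequence of keratins limits some of these counts, because RSEM divides reads among genes that share them. Of all 75-base windows of the canonical KRT8 transcript, 18.8% also occur in transcripts of other genes, mainly KRT8 pseudogenes, and for KRT18 the share was 28.4%, of which KRT8 transcripts that overlap KRT18 on the opposite strand make the largest part. The pseudogenes of KRT8 held 386 reads in parental cells against 616 in CARM1 KO cells, and with them added KRT8 was 3.86-fold higher. Those of KRT18 held 91 and 75 reads, and with them KRT18 was 2.36-fold higher. KRT222 shared 35.6% of its windows with ENSG00000264058, an annotated gene that overlaps it on the same strand and had 32 reads in parental cells against 0 in CARM1 KO cells. KRT17 shared 4.57%, KRT34 4.1%, and KRT19 and KRT80 0% of their windows. KRT10 overlaps KRT10-AS1 on the opposite strand, with 115 reads in parental cells against 108 reads in CARM1 KO cells, and as the sources used here do not say whether strand was used in counting, reads of these genes and of KRT8 and KRT18 where they overlap may not be separated.

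The keratin genes lie in a pair of clusters, and members of both clusters were called. On GRCh37, 26 type II genes and KRT18 lie on chromosome 12 between 52562780 and 53346690, with KRT18 beside KRT8 at the end of the cluster. The other 28 type I genes lie on chromosome 17 between 38810917 and 39781094. On chromosome 12, 3 of the 5 keratins with at least 10 reads were higher and 0 were lower. The 10 nearest expressed protein-coding genes on both sides together, with at least 100 reads each, had a median log2 fold change of 0.15, from -0.36 to 2.28, and 2 of them were called higher. On chromosome 17, 2 of 7 keratins were higher and 2 were lower, and the 10 flanking genes had a median log2 fold change of -0.04, from -1.45 to 1.53, with 0 called. Of these keratins, KRT34, KRT19 and KRT222 passed the minimum through the library in which they were high. Over all genes with at least 10 reads, 12.4% were called higher and 11.2% were called lower. Opposite differences stood close together on chromosome 17. KRT19, at 0 reads in CARM1 KO cells, lies 1.09 kb from KRT15, which was not called, and 91.1 kb from KRT17, which was 13.2-fold higher. KRT222, the first gene of this cluster, lies 153 kb from KRT10.

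**Figure D4:**
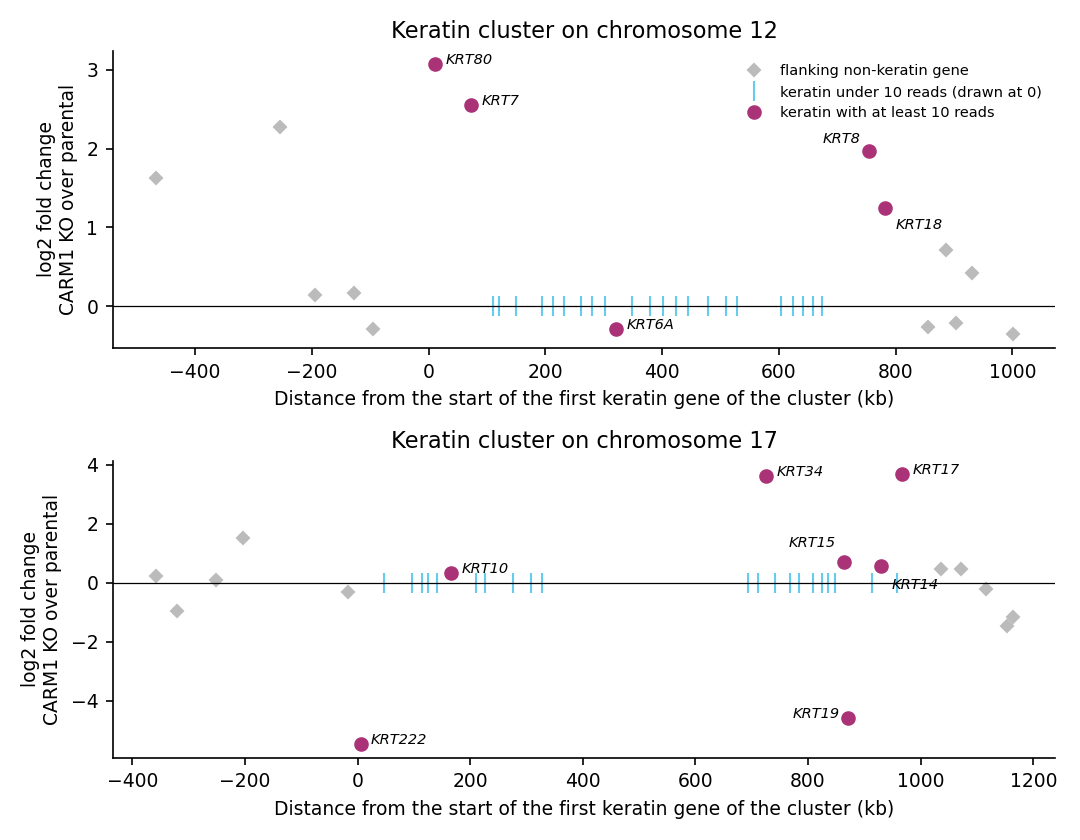
Log2 fold change of CARM1 KO over parental cells, with a prior count of 2, against distance from the start of the first keratin gene of each cluster in kb, for keratins with at least 10 reads (magenta), keratins under 10 reads (blue ticks drawn at 0) and 5 flanking non-keratin genes on each side (grey). KRT7, KRT8, KRT18 and KRT80 lie above 0 on chromosome 12, and on chromosome 17 KRT17 and KRT34 lie above 0 while KRT19 and KRT222 lie below it.

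Most genes for proteins that anchor keratin filaments to the cell surface were also higher. Of 19 listed genes of desmosomes, hemidesmosomes and plakin linkers, 17 had at least 10 reads, 11 of these were called higher and 0 were called lower, where 12.4% and 11.2% of all genes were, and their median log2 fold change was 2.04. ITGB4 and PKP1 (8 and 50 reads) passed the minimum through the CARM1 KO library. DSP, the plakin that ties keratin to the desmosome, had 11369 reads in parental cells against 45120 in CARM1 KO cells and was 3.88-fold higher (95% interval 3.80 to 3.96), which was 0.993 times the fold change of KRT8 with an interval of 0.967 to 1.02. Of the desmosomal cadherins, DSG2 went from 1002 to 5254 reads, DSC2 from 274 to 1187 reads and DSC3 from 284 to 1919 reads, and each was called. The other desmosomal cadherins were not called, with DSC1 at 14 and 12 reads, DSG3 at 8 and 5 reads and DSG1 and DSG4 at 0 reads. Among the plaque proteins, PKP2 had 230 and 977 reads and PKP3 had 87 and 380 reads, both called higher, while plakoglobin (JUP) had 285 and 254 reads and was not called. EVPL, a plakin of cornifying layers, went from 115 to 607 reads. In the hemidesmosome, ITGB4 went from 8 to 157 reads, COL17A1 from 17 to 88 reads and DST from 12472 to 47934 reads, each called higher. PLEC, which links keratin to ITGB4, was 2.34-fold higher and its partner chain ITGA6 was 2.39-fold higher, both under the fold threshold.

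Most regulators of epithelial and keratin genes with at least 10 reads were higher, while ELF3 was lower. Of 14 listed genes, 8 had at least 10 reads, 6 were called higher and 1 was called lower, where 12.4% and 11.2% of all genes were. Their median log2 fold change was 2.01. TFAP2C (1 and 12 reads), called higher, passed the minimum through the CARM1 KO library, and ELF3 passed it through the parental library. KLF5, a zinc-finger factor of proliferating epithelia, had 541 reads in parental cells against 2305 in CARM1 KO cells and was 4.16-fold higher (95% interval 3.79 to 4.58). GRHL1, which activates desmosomal cadherin genes, went from 48 to 199 reads, and the epithelial splicing factors ESRP1 and ESRP2 went from 21 to 123 and from 27 to 162 reads, each called higher. Others were lower or not called. ELF3, an epithelial ETS factor, had 98 reads in parental cells against 2 in CARM1 KO cells and was 50.2-fold lower (95% interval 13.5 to 420). TFAP2A, a factor of epidermal genes, had 852 and 678 reads and GRHL3 had 7 and 0 reads, and neither was called. TP63, the factor that drives stratification, had 2 reads in parental cells against 0 in CARM1 KO cells. Of 9 listed genes of cornified keratinocytes, 5 had 0 reads in both libraries, IVL and LORICRIN among them. Of the 3 with at least 10 reads, 2 were called higher, beside 12.4% of all genes. These were TGM1 with 40 and 208 reads and FLG with 1 and 35 reads, of which FLG passed the minimum through the CARM1 KO library. SFN, with 650 and 1938 reads, was 2.91-fold higher and was not called. The summed level of the list went from 22.2 to 68.4 CPM on the TMM scale, and SFN held most of it in each library.

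The intermediate filament genes outside the keratins had no common direction. Of 15 listed genes, 14 were matched, 11 had at least 10 reads, 2 were called higher and 2 were called lower, with a median log2 fold change of 0.04. NES, the filament of progenitor cells, had 22322 reads in parental cells against 2728 in CARM1 KO cells and was 8.38-fold lower (95% interval 8.05 to 8.72). LMNB1, a lamin of the nucleus, had 31469 and 7528 reads and was 4.28-fold lower (95% interval 4.17 to 4.39). VIM, the filament of mesenchymal cells and of many carcinoma lines, had 20572 reads in parental cells against 45245 in CARM1 KO cells, and its 2.15-fold higher level (95% interval 2.11 to 2.18) was under the fold threshold. Keratin and vimentin were therefore both abundant in both libraries. Per length, the KRT8 level was 1.03 times that of VIM in parental and 1.88 times in CARM1 KO cells, and the KRT18 level was 1.57 and 1.73 times that of VIM.

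**Figure D5:**
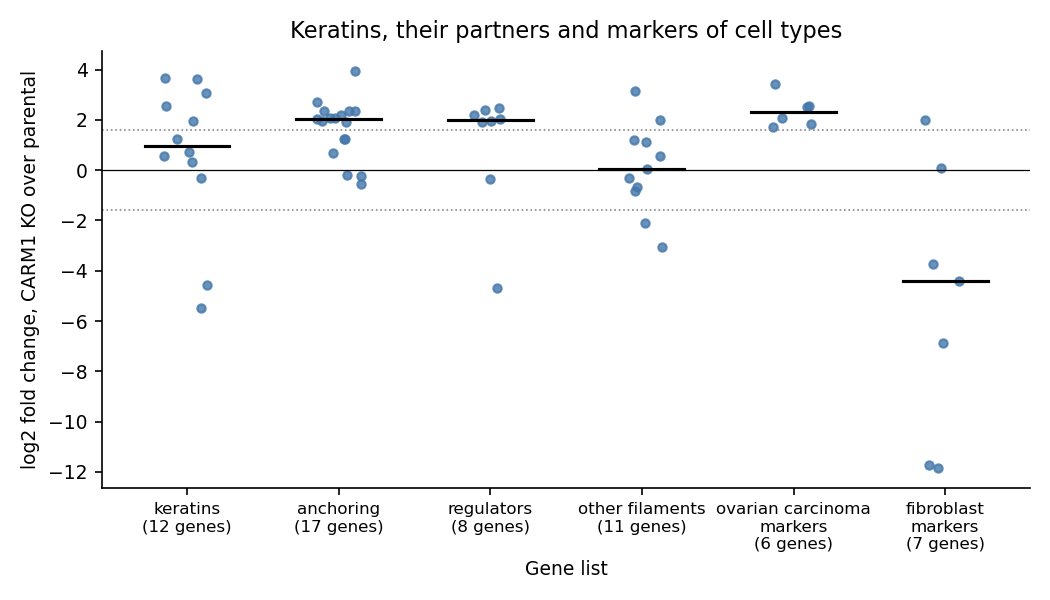
Log2 fold change of CARM1 KO over parental cells, with a prior count of 2, for each gene with at least 10 reads in 6 lists, with black bars at the median and dotted lines at 3-fold. The anchoring genes have a median of 2.04 and the keratins of 0.98 (2.26 with at least 50 reads), while the fibroblast markers have a median of -4.41.

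Markers of other cell types also differed between the libraries. Of 9 listed markers of ovarian carcinoma, 6 had at least 10 reads and these 6 were called higher, CLDN3 (0 and 10 reads) and CDH1 among them, which passed the minimum through the CARM1 KO library. The summed level of the list went from 26.8 to 110 CPM. EPCAM, an epithelial adhesion molecule, had 249 reads in parental cells against 848 in CARM1 KO cells, and PAX8, a factor of Müllerian epithelium, had 311 and 1149 reads. FOLR1 had 59 and 264 reads, MSLN had 201 and 1188 reads, and E-cadherin (CDH1) had 3 and 53 reads. Each of these epithelial or tumour markers was thus higher in the same library as KRT7 and KRT8. The remaining listed markers were under the minimum of reads. WT1 (8 and 1 reads) and CLDN4 (2 and 0 reads) had more reads in parental cells, and MUC16 had 0 reads in parental cells against 1 in CARM1 KO cells. Of 7 fibroblast markers, 5 were called lower and 1 was called higher, and their summed level went from 1030 to 21.6 CPM. COL1A2 had 16732 reads in parental cells against 3 in CARM1 KO cells, PDGFRA had 14326 and 2 reads, THY1 had 678 and 4 reads, and COL1A1 had 131 and 537 reads, while DCN had only 24 reads in parental cells against 0 in CARM1 KO cells. The fibroblast list was therefore high in parental cells through a pair of genes, COL1A2 and PDGFRA, and not through DCN or COL1A1. Of 6 mesothelial markers, 3 were called higher, among them MSLN, which is also in the ovarian carcinoma list, and PDPN was called lower, from 145 to 4 reads, and their summed level went from 11.9 to 40.5 CPM. Of 6 leukocyte markers, 3 were called higher, CD68 from 400 to 1644 reads, and their summed level went from 13.7 to 52.7 CPM, while PTPRC had 6 reads in parental cells against 0 in CARM1 KO cells and CD3E had 0 reads in both. The part of these markers in the keratin differences was not tested.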

How the data were processed

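RNA-Seq was analysed from 1 parental and 1 CARM1 KO library, total RNA prepared with a ScriptSeq kit and read as 75-base pairs. The deposited values are the authors' estimated counts, whole numbers that RSEM gave per Ensembl gene from bowtie2 alignments to hg19, and were not normalized. The Ensembl release and the use of strand are not given in the sources used here. Identifiers were matched to GENCODE 44 lifted to GRCh37 (55501 of 57736 genes).

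Counts were scaled with TMM in edgeR 4.0.16 (R 4.3.3). Genes with 10 or more reads over both libraries were compared. A quasi-likelihood fit in edgeR needs replicates and was not possible here, so no P value is given. Genes were called at the authors' fold threshold of 3 when the exact 95% binomial interval (scipy 1.17.1) did not include 1. Intervals cover counting error only. A count of 0 was set to 3 reads, the limit it allows. Log2 fold changes have a prior count of 2. Levels per length use the canonical transcript. The steps were checked on simulated counts. Alternatives were other scalings, including DESeq2 1.42.0 size factors, and other minimums, thresholds and prior counts. Further alternatives were edgeR's exact test at set coefficients of variation, and reads of pseudogenes and paralogs summed.

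Keratins with at least 10 reads are named, with KRT20, and in other lists called genes with at least 100 reads besides VIM, DSP, PLEC, TP63, EPCAM and CDH1. JUP, ITGA6, DSC1, DSG1, DSG3, DSG4, PKP1, FLG, TFAP2A, GRHL3, CLDN3, MUC16, WT1, DCN, PTPRC, CD3E, IVL, LORICRIN and the keratins under 10 reads were picked from the lists once their values were known. The members and lists were chosen with earlier results of these data known. ChIP-seq of the same cells was not used here. Promoter sequences are not reported here.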

Additional observations from a re-analysis of the deposited data

How the results depend on the processing

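The keratins called did not change with library size only, DESeq2 size factors, upper-quartile scaling, fold above 3 alone, the whole counting interval past 3-fold, or edgeR's exact test at a coefficient of variation of 0.1 or 0.2. At a coefficient of 0.4, KRT8 was no longer called. With a fold above 2, KRT18 was called as well, and with at least 1 read KRT16 was called as well. With paralogs summed, the 10 reads of KRT81, KRT83 and KRT86 together in CARM1 KO cells and 0 in parental cells were called higher. With at least 50 reads, KRT19 was not compared, 1 keratin was lower, and the median log2 fold change of the keratins was 2.26.

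Over all genes the counts moved more. With at least 50 reads, 1219 genes were lower. With the whole interval past 3-fold, 1292 genes were higher and 1234 were lower. With a fold above 2, 3180 genes were lower, and at a coefficient of variation of 0.4, 532 were higher and 894 were lower, against 2295 and 2070 in the values reported. The fold changes of summed reads stayed on the same side of 3-fold under each scaling, from 2.29 to 2.41 for type I and from 4.20 to 4.41 for type II keratins. Of 163 further comparisons for single keratins, 161 kept their call and 0 reversed. Part of these could not change a call, because neither the prior count nor the minimum of reads enters the call of a keratin that is compared. No paired analysis was possible because each group has a single library without a replicate number, and no library could be left out. Depth limits KRT14, KRT6A and the keratins under 10 reads most.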

Other observations

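Keratin pseudogenes are not among the keratins described above. Of 148 keratin pseudogenes in the table, 15 had 10 or more reads over both libraries, of which 2 were called higher and 3 were called lower in CARM1 KO cells, beside 12.4% and 11.2% of all genes. KRT8P3 had 79 reads in parental cells against 349 in CARM1 KO cells, and 11.1% of the 75-base windows of KRT8 also occur in it. KRT8P48 had 46 reads in parental cells against 0 in CARM1 KO cells, which was at least 15.7-fold lower, and KRT8P38 had 18 and 0 reads. KRT18P59 had 20 reads in parental cells against 5 in CARM1 KO cells. KRT8P4 had 0 reads in parental cells against 11 in CARM1 KO cells, and passed the minimum of reads through that library, as KRT8P48 and KRT8P38 did through the parental library. These pseudogenes were picked once their values were known, and what part of their reads comes from KRT8 or KRT18 transcripts was not tested.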
